A study of Mus musculus with 20 samples.

Results

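The genes described here encode paired receptors of myeloid cells: Pilra, Pilrb1, Pilrb2, Sirpa, Pirb, Cd300a, Cd300lf, Cd300ld and Cd33. They were chosen by name, but with earlier results of these data known, so the comparisons with all genes below are description only. A peak belonged to a gene when the deposited annotation named that gene as the nearest. Of the 19738 genes with a peak in any list these are 9, and they hold 324 of the 504887 listed peaks. Merging peaks that overlap by at least 1 bp gave 88351 regions in all, of which 47 belong to the 9 genes. The peaks come from ATAC-seq, in which the transposase Tn5 inserts adapters into accessible DNA. The cells were cultured mouse ER-Hoxa9-Lys-GFP cells of strain C57BL/6, grown in medium with stem cell factor. Every sample carries ER-Hoxa9, by its name a fusion of the estrogen receptor with the transcription factor Hoxa9, so there is no group without the fusion. The 0 h group was cultured with E2 (estradiol), and 9 groups were sampled 4, 8, 12, 24, 36, 48, 72, 96 and 120 h after E2 was washed out. Each group has 2 samples but only 1 peak list, so no spread between replicates, no test and no p-value can be given. Nuclei of a preparation were divided into separate transposition reactions, so the samples of a group may be technical replicates. Whether the cells are 1 clone is not stated in the labels. Read depth is unknown, because the lists hold no read counts.

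Paired receptors are families in which closely related genes encode receptors of opposite effect. The inhibitory form has a long tail with tyrosine motifs (ITIMs) that recruit the phosphatases SHP-1 and SHP-2, and the activating form has a short tail and signals through an adaptor such as DAP12 or the Fc receptor gamma chain. On neutrophils and macrophages such receptors set the threshold for adhesion, phagocytosis and the release of toxic products. Pilra encodes the inhibitory receptor of its pair, which binds sialylated proteins, and Pilrb1 and Pilrb2 encode activating partners. Sirpa encodes the receptor for the "do not eat me" signal Cd47. Pirb encodes an inhibitory immunoglobulin-like receptor that binds MHC class I. Cd300a and Cd300lf encode inhibitory receptors for lipids of dying cells, whereas Cd300ld encodes an activating member of that family. Cd33 encodes a sialic acid-binding lectin of the Siglec family. The set therefore holds 6 genes usually counted as inhibitory and 3 activating genes. These roles were not checked in the mouse protein sequences.

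Promoters are shown first, because those of the Pilr genes bear on how their peaks can be read. The 250 bases before the transcription start site (TSS) are given 5′ to 3′ for the 3 Pilr genes, for Cd300ld, whose promoter also had no peak at 0 h, and for Pirb, whose promoter had a peak in all 10 lists. The sequences are from RefSeq, build GRCm38.p6, the same sequence as mm10, in which 8 of the 9 genes had an entry. The TSS of each of these 8 entries lay 0 bp from the TSS that the deposited distances imply. Capitals mark matches to motifs searched on both strands.
Pilra, chr5:137836279-137836528, minus strand: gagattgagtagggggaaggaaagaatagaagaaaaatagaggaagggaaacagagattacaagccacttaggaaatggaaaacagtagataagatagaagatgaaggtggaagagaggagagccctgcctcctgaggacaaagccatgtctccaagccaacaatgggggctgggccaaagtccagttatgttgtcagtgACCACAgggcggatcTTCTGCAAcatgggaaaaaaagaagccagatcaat
Pilrb1, chr5:137858050-137858299, minus strand: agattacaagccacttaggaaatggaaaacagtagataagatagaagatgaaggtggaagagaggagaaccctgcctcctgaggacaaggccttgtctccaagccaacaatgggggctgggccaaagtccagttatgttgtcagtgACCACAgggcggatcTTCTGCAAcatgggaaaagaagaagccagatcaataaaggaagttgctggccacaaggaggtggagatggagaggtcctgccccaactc
Pilrb2, chr5:137871759-137872008, minus strand: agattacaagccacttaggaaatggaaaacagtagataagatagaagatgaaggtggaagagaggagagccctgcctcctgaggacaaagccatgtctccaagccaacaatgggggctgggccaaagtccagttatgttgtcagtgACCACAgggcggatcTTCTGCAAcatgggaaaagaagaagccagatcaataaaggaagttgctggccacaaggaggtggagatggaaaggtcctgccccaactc
Cd300ld, chr11:114989887-114990136, minus strand: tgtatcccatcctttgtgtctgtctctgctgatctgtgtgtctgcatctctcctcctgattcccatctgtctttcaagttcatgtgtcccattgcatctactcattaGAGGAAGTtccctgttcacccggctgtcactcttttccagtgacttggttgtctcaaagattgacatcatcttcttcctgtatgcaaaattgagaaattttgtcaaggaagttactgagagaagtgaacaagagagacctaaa
Pirb, chr7:3720383-3720632, minus strand: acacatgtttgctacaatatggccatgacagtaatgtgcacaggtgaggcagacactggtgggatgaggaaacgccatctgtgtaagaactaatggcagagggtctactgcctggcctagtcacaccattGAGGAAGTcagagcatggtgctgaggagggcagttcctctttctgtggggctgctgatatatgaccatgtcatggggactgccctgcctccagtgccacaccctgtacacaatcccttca

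The 3 Pilr promoters are near copies of each other. Over the windows of 300 bases, reaching 50 bases past the TSS, Pilrb1 and Pilrb2 were identical at 292 of 300 positions (97.3%). In the printed parts they differ by A69G, G89A, T93A and G233A, where the first letter is the base of Pilrb1, the number counts from the 5′ end of the printed sequence and the last letter is the base of Pilrb2. Shifted by 54 bases, Pilra was identical to Pilrb2 at 244 of 246 positions (99.2%) and to Pilrb1 at 242 of 246 (98.4%). Among the other 25 pairs of the 8 windows, identity at the best shift was between 28.9% and 34.1%. Of the 251 stretches of 50 bases in the Pilra window, 133 also stand in that of Pilrb2 and 73 in that of Pilrb1, and Pilrb1 shares 109 of its 251 with Pilrb2. Reads that fall wholly in such a stretch cannot be told apart between these promoters, and no source used here gives how they were treated. The values of single Pilr promoters are therefore uncertain, and their lists are best read together.

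Each Pilr promoter held 1 match to the RUNX letters TGTGGT and 1 to the C/EBP letters TTGCNNAA, both on the reverse strand and at the same bases of the shared stretch. Matches to these letters stood in 14.0% and 9.56% of all 32851 RefSeq promoter windows of 250 bases. Because the stretch is shared, these are not independent matches at 3 genes. Cd300a also held the C/EBP letters and Cd33 the RUNX letters. The PU.1 letters GAGGAAGT stood in the windows of Cd300ld and Pirb and in 2.44% of all windows. None of the 8 windows held the AP-1 letters TGANTCA (6.75% of all) or the HOXA9-PBX letters TGATTTAT (0.837% of all). The motifs searched do not overlap in the printed windows.

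**Figure D1:**
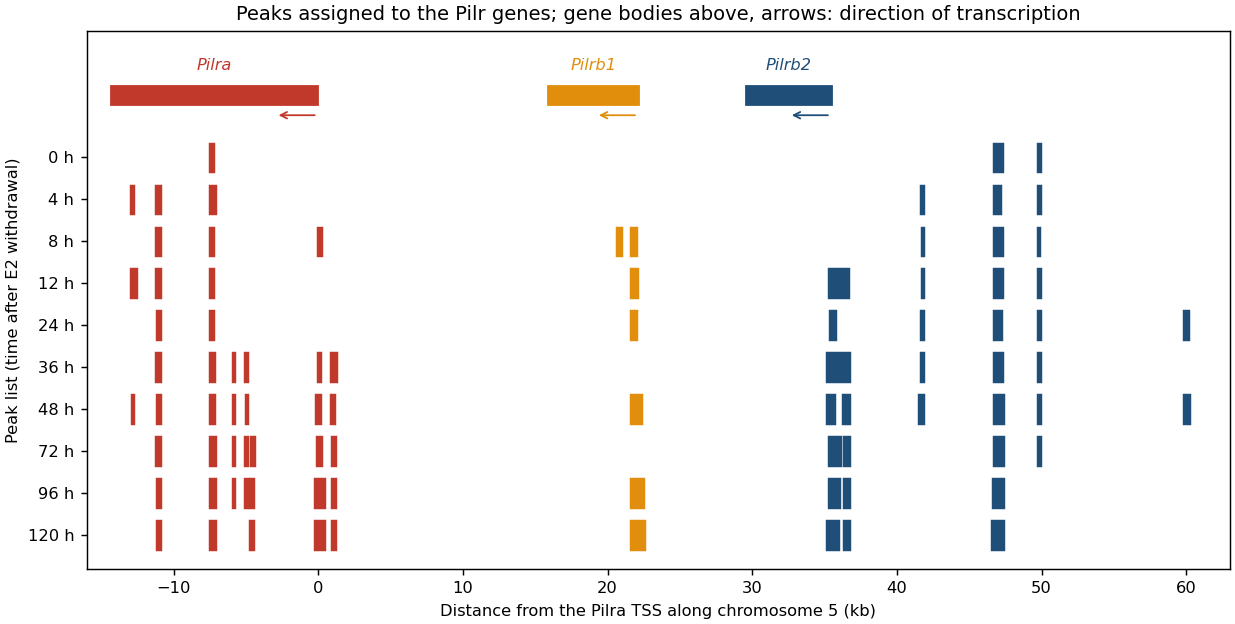
Peaks assigned to Pilra (red), Pilrb1 (orange) and Pilrb2 (blue) in each of the 10 lists, drawn to scale by distance from the Pilra TSS (x axis, kb), with 1 row per list and the gene bodies above. No peak was listed at any of the 3 promoters at 0 and 4 h, and at 96 and 120 h each promoter had 1.

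The Pilr genes lie side by side on chromosome 5 and are read in the same direction: Pilra at 137821952 to 137836278, Pilrb1 at 137852141 to 137858425 and Pilrb2 at 137865821 to 137871758. A promoter peak is here a peak whose deposited distance to the TSS does not exceed 1000 bp. With E2 none of the 3 promoters had a listed peak, and at 120 h each had 1. As the map of the locus shows, Pilra and Pilrb1 were first listed at 8 h and Pilrb2 at 12 h, but Pilra was listed without a break only from 36 h and Pilrb1 only in the last 2 lists.

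In order of time, from 0 to 120 h, the 10 lists held 1, 3, 3, 3, 2, 6, 7, 7, 7 and 5 peaks of Pilra. The 5 late lists were thus all above the 5 early ones, and the step came between 24 and 36 h. The promoter peak was listed at 8 h, with a width of 295 bp, was missing at 12 and 24 h, and was listed in each of the 5 lists from 36 h on. In those 5 lists its widths were 324, 464, 366, 780 and 789 bp. It covered 213, 205 and 233 of the 250 printed bases in the first 3 of them and all 250 in the last 2.

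Of the 8 merged regions of Pilra, 1 was present in all 10 lists, an intronic site 7325 bp inside the gene (137828693 to 137829208). A second intronic site, 11054 bp inside the gene (137825013 to 137825430), was missing from the 0 h list only. A region is called gained here if none of the lists up to 8 h and each of the lists from 72 h holds it. Pilra had 2 gained regions, both outside the promoter. The intergenic region at 137837093 to 137837538, -1037 bp from the TSS, was present from 36 h on. The intronic region at 137831510 to 137831900, 4563 bp inside, was present from 72 h on. Next to it, an intronic region 5867 bp inside and a region in the third exon, 4979 bp inside, were present from 36 to 96 h and not at 120 h. The remaining region besides the promoter, 12791 bp inside and annotated to the end of the neighbouring gene Zcwpw1, came and went, with peaks at 4, 12 and 48 h only. Most of the added Pilra sites were therefore in the gene or just before it.

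Pilrb1 had the fewest peaks of the Pilr genes: 0, 0, 2, 1, 1, 0, 2, 0, 1 and 1 in order of time. All of these were promoter peaks. In the 6 lists with any, the widest measured 541, 548, 487, 527, 1016 and 1046 bp. The promoter was therefore listed on and off in the middle of the course, and its peaks in the last 2 lists were wider than those at the other Pilr promoters.

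For Pilrb2 the lists held 2, 3, 3, 4, 5, 5, 6, 4, 3 and 3 peaks, with the highest number at 48 h. Its promoter region, 137871353 to 137873044, was the only promoter region of the 9 genes that counted as gained: it was absent from the first 3 lists and present in all 7 from 12 h on. In these 7 lists the widest promoter peak measured 1466, 518, 915, 648, 920, 837 and 932 bp. Away from the promoter, the intergenic region -11475 bp from the TSS was present in all 10 lists. The region at -14352 bp was present from 0 to 72 h and missing at 96 and 120 h, and that at -6204 bp was present from 4 to 48 h. A region at -24521 bp, in an intron of Cyp3a13, was listed at 24 and 48 h only.

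Pilra and Pilrb2 shared a further site at a like distance before the gene. In Pilra it lay between -1003 and -1053 bp from the TSS, in every list from 36 h on. In Pilrb2 a separate peak stood in the same 5 lists, at distances of -945, -1021, -1018, -1042 and -1030 bp. These peaks stand at the limit of the promoter definition: at 36 h that of Pilrb2 was inside it, and those of Pilra were just outside. At 12 h no separate peak was listed there for Pilrb2, but its promoter peak of 1466 bp already reached into this site. The sequences of the Pilra and Pilrb2 sites were not compared, so whether reads are shared between them is not known.

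**Figure D2:**
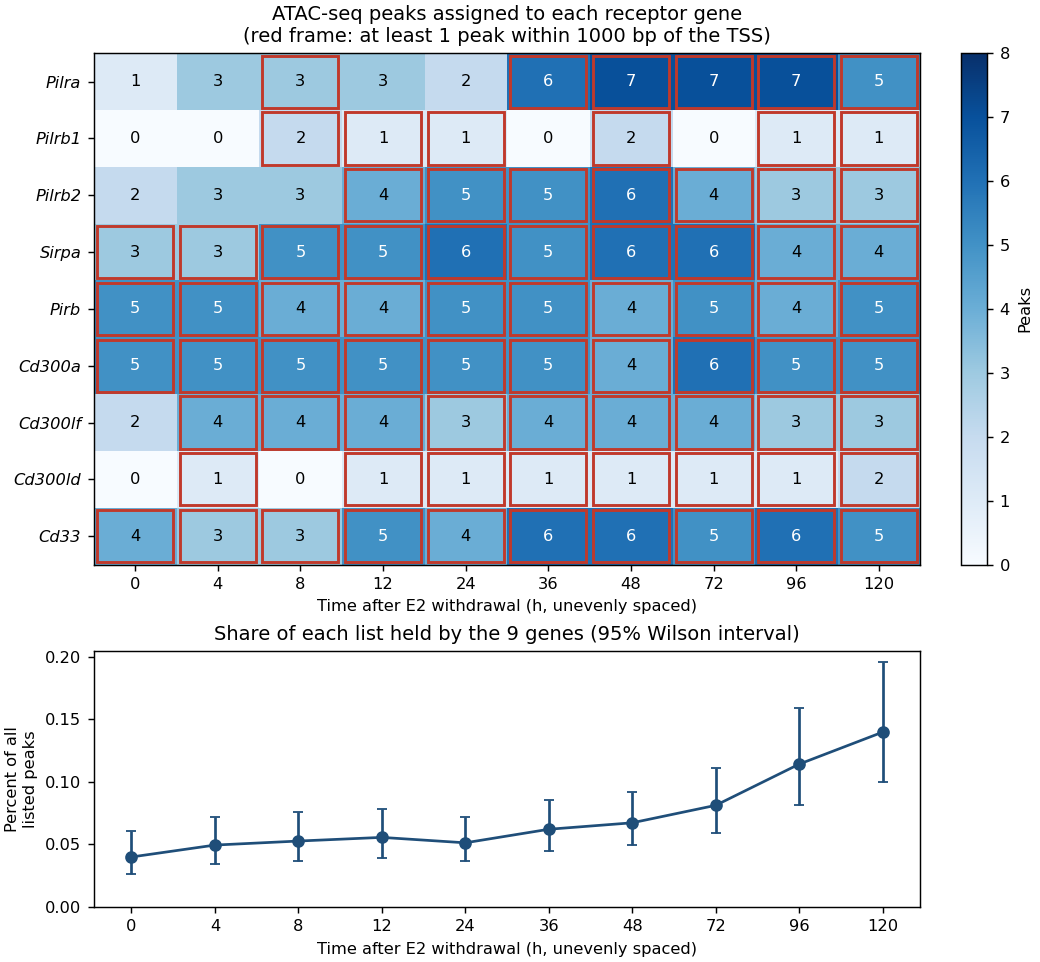
Upper panel: number of peaks assigned to each of the 9 genes (rows) in each list (columns, h after E2 withdrawal), with a red frame where at least 1 lies within 1000 bp of the TSS. Lower panel: percent of all listed peaks that belong to the 9 genes with its 95% Wilson interval, which was 0.0398% at 0 h and 0.140% at 120 h.

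Outside the Pilr locus, the promoters fell into those listed throughout and those missing at the start. The widths of these peaks are compared below with the median width of all peaks in a list. It was lowest at 36 h (413 bp) and highest at 120 h (617 bp). Sirpa, Pirb, Cd300a and Cd33 had a promoter peak in all 10 lists, Cd300lf in 9 and Cd300ld in 8. At 0 h 4 of the 9 genes had a promoter peak, and at 120 h all 9 did, the first 4 among them. Of all 11902 genes with a promoter peak in any list, 80.0% had 1 at 0 h and 72.2% at 120 h, and 10.4% had 1 at 120 h but none at 0 h. Of those with 1 at 0 h, 77.2% still had 1 at 120 h. The 5 receptor genes without a promoter peak at 0 h all had 1 at 120 h, against 52.3% of the 2377 genes that lacked 1 at 0 h and had 1 in some list. The Pilr promoters among them are near copies, so these are not 5 independent genes. Without Pilrb1 and Pilrb2, 4 receptor genes had a promoter peak at 0 h and 7 at 120 h. Some promoters are missing from the 0 h list though listed soon after: of genes with promoter peaks at 4 and 8 h, 8.02% had none at 0 h. Among the 5 genes, Cd300lf had promoter peaks at both 4 and 8 h, Cd300ld at 4 h, Pilra and Pilrb1 at 8 h and Pilrb2 at neither.

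Cd300lf lies on chromosome 11 at 115116214 to 115135372. It had 2, 4, 4, 4, 3, 4, 4, 4, 3 and 3 peaks in order of time. Its promoter peak was missing at 0 h and then 896 bp wide at 4 h, with later widths between 666 and 958 bp. A peak -5154 bp from the TSS, in an intron of Rab37, within which Cd300lf lies, was present in all lists. The intronic site 14317 bp inside the gene was missing at 24 h only. A further site at -8325 bp, also in Rab37, was present from 4 to 72 h and not later.

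Cd300ld, on the same chromosome at 114982443 to 114989886, had 0, 1, 0, 1, 1, 1, 1, 1, 1 and 2 peaks. All but 1 of the 2 at 120 h were at the promoter, at 114989627 to 114990338. The promoter peak was 294 bp wide at 4 h and narrower than most peaks of that list, only 19.0% of which were narrower still. From 12 h on its width was between 522 and 689 bp. The second peak at 120 h was intergenic, -5115 bp from the TSS, and was listed at no other time.

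Cd300a (chromosome 11, 114889152 to 114901946) was the steadiest of the set. It had 5 peaks in 8 lists, 4 at 48 h and 6 at 72 h. Of its 6 regions, 4 were present in every list: 2 upstream at -10204 and -5190 bp, the promoter region in the first exon at 376 bp, and an intronic site at 8115 bp. The intergenic region 17828 bp downstream was missing at 48 h only. The 849 bp of its promoter peak at 0 h were more than the width of 85.95% of that list, and the 616 bp of 120 h more than that of 49.75%.

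**Figure D3:**
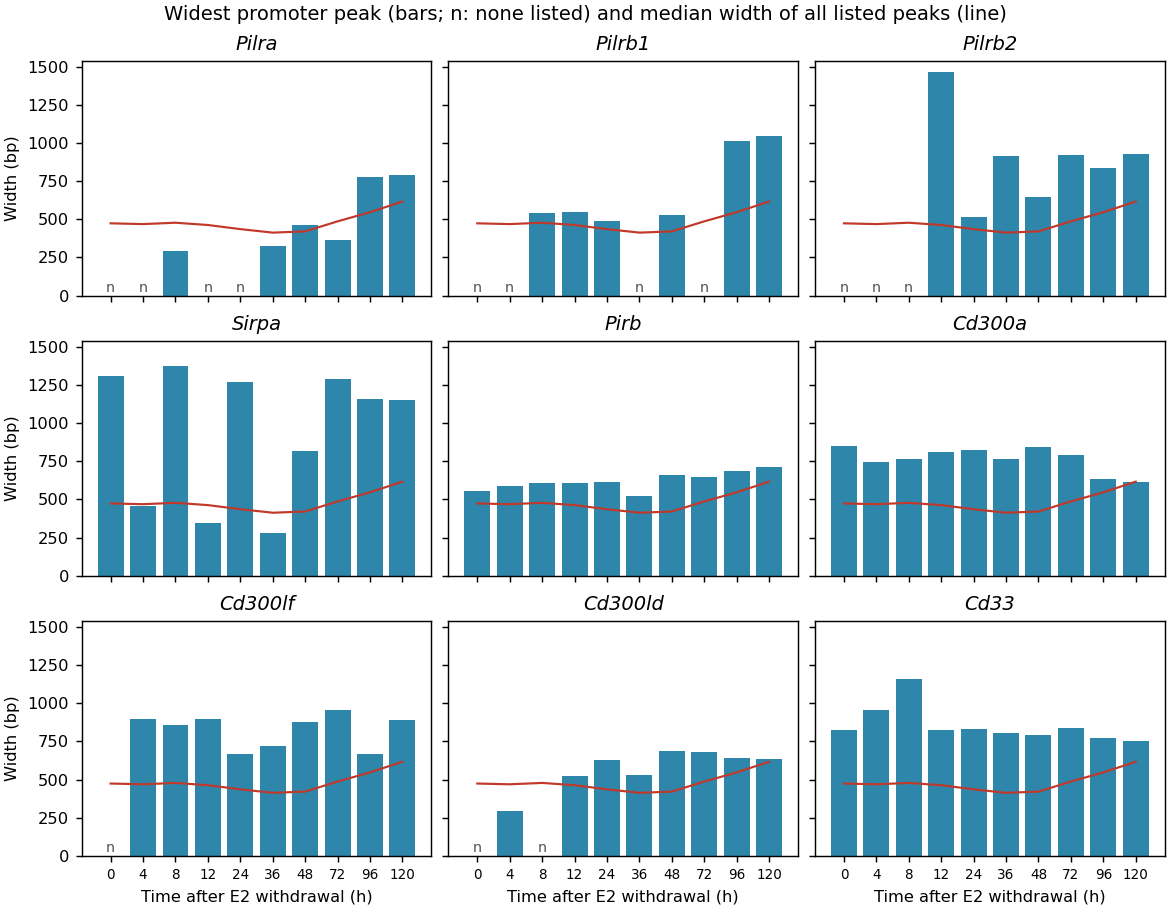
Width in bp of the widest promoter peak of each gene (bars, 1 panel per gene; n marks a list with none) by time after E2 withdrawal, with the median width of all listed peaks as a line. The Pilra and Pilrb1 bars are highest at 96 and 120 h, and the Sirpa bars alternate between narrow and wide up to 48 h.

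Pirb (chromosome 7, 3712505 to 3720382) had 5, 5, 4, 4, 5, 5, 4, 5, 4 and 5 peaks in order of time. Its promoter peak was listed throughout, with widths from 523 bp (at 36 h) to 711 bp (at 120 h). The 523 bp were more than the width of 67.8% of that list, and the 711 bp more than that of 61.1%. The equal totals hid a change of sites. The intergenic region at 3725338 to 3725834, -5237 bp from the TSS, was present from 0 to 72 h and then missing. The region at 3732731 to 3733238, -12602 bp away, was gained, with peaks at 72, 96 and 120 h. This gained region lies within Pira1 (3731626 to 3739943), an activating relative, and was assigned to Pirb because that start was the nearest in the deposited annotation. The constant region -19515 bp away (3739504 to 3740342) also overlaps Pira1. The Pira genes are similar copies, so reads at both regions may be shared between them. The region at -51980 bp was also present in every list, and 1 at -56933 bp was listed at 0, 4, 24 and 36 h. A peak at the end of Pirb itself, 7833 bp from the TSS, was listed at 120 h only.

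Sirpa (chromosome 2, 129591042 to 129632228) had 3, 3, 5, 5, 6, 5, 6, 6, 4 and 4 peaks in order of time. Both regions present at 120 h and missing at 0 h lay away from the promoter. The intergenic one, 37988 bp from the TSS at 129632962 to 129633866, was present from 8 h on. The upstream one at -6610 bp was present from 4 h on except at 72 h. An intronic site 5762 bp inside was present from 12 to 96 h. The deposited annotation measured distances from several starts of this gene. Over the first cluster of starts lay a wide peak, and before it a narrow flank, -738 bp from the nearest start at 36 h. In order of time the widest promoter peak measured 1309, 455, 1375, 346, 1273, 283, 817, 1290, 1158 and 1153 bp. At 4, 12 and 36 h the wide peak was missing, between lists that had it, and the flank (271, 288 and 283 bp wide) and an intronic site near a further start were all that was listed within the promoter distance.

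Cd33 (chromosome 7, 43527399 to 43537424) had 4, 3, 3, 5, 4, 6, 6, 5, 6 and 5 peaks in order of time. Its promoter peak was always listed, between 755 and 1161 bp wide. It had 2 gained regions. The intronic one, 2691 bp inside at 43530167 to 43530794, was present from 12 h on and widened from 320 bp in that list to 627 bp in the last. The median width of all listed peaks also rose between these lists, from 463 to 617 bp. The intergenic one, -5564 bp from the TSS at 43538534 to 43538949, was present from 48 h on. Cd33 also had the only lost region of the 9 genes, where lost means held by each list up to 8 h and by none from 72 h. It lay 7628 bp from the TSS, past the end of the gene, at 43525385 to 43525690, and was last listed at 48 h. Further upstream, a region at -12985 bp was present in every list, and its neighbour at -11463 bp was missing at 4, 8 and 24 h.

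**Figure D4:**
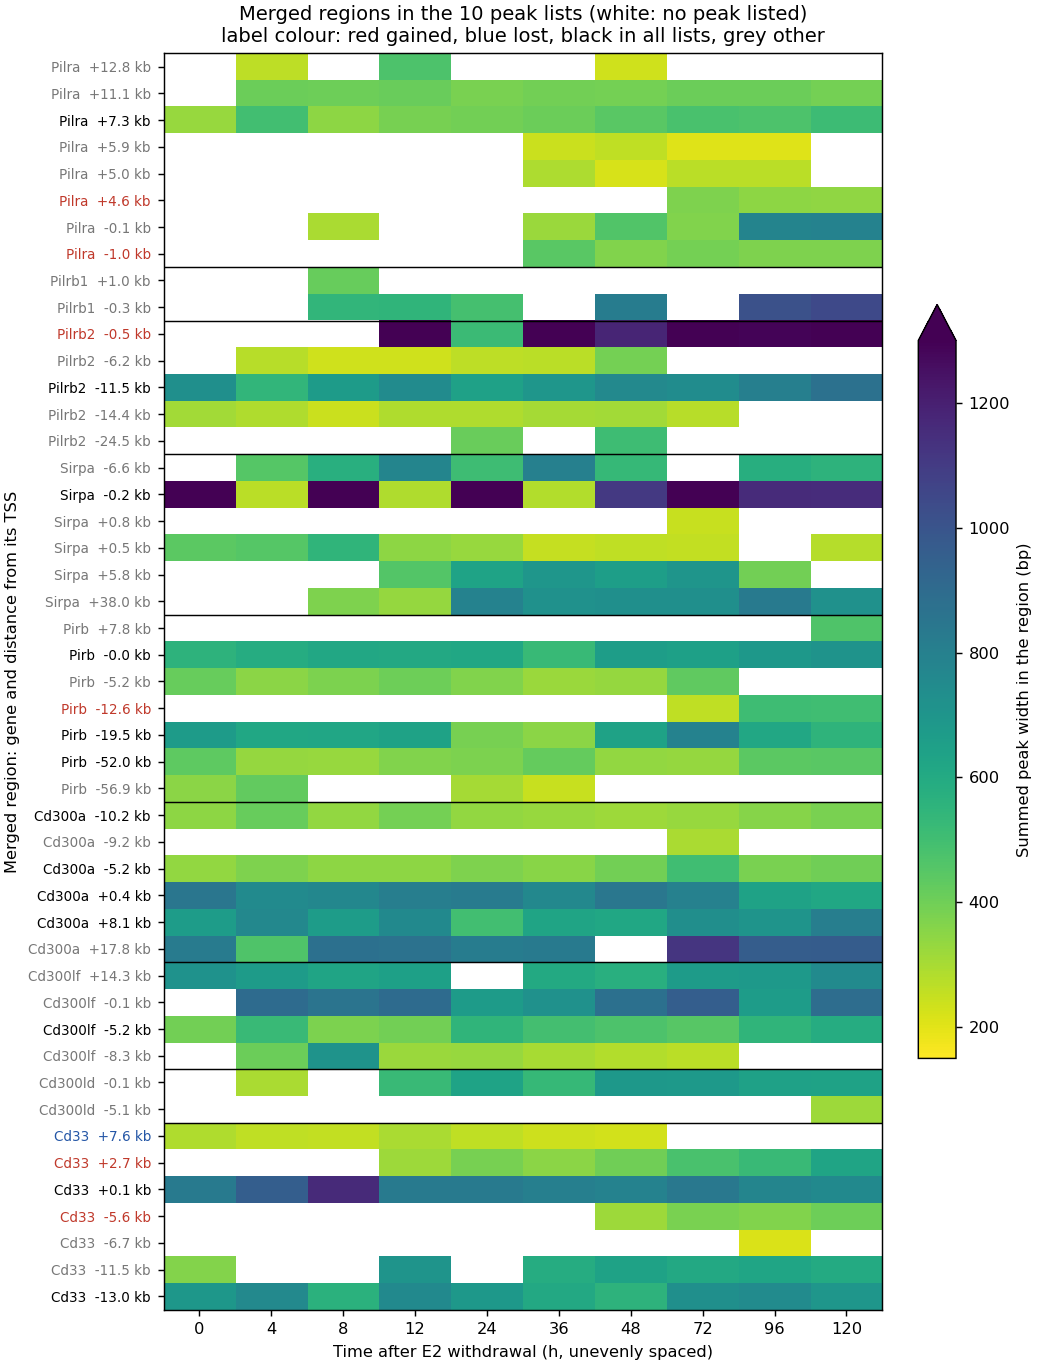
Each row is 1 of the 47 merged regions of the 9 genes, labelled with its distance from the TSS in kb, and each column is a list. Colour gives the summed peak width in bp and white means no peak, and the 6 gained regions (red labels) stand beside 1 lost (blue) and 13 present in all lists (black).

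Counted by region, the receptor genes kept most sites of the E2 culture and added others. Of the 21 regions present at 0 h, 17 were present at 120 h (81.0%, 95% Wilson interval 60.0 to 92.3%), against 32.4% of all 54346 regions present at 0 h. Promoters are kept more often than other sites, and among regions away from promoters 12 of 16 were kept (75.0%, 50.5 to 89.8%), against 22.3% of all such regions. Of the 32 regions present at 120 h, 15 were absent at 0 h (46.9%, 30.9 to 63.6%), against 24.8% of all. Among regions away from promoters, 10 of 22 were absent at 0 h (45.5%, 26.9 to 65.3%), against 32.2% of all such regions. This last share lies within the interval. The gained regions were 6 of 47 (12.8%, 5.99 to 25.2%), beside 2.38% of all regions, and lay at 4 genes: Pilra and Cd33 with 2 each, Pilrb2 and Pirb with 1 each. Over the genome, 8.85% of genes had at least 1 gained region. By position, 1 of the 12 promoter regions of the set was gained, beside 1.32% of all promoter regions, and 5 of the 35 others, beside 2.56%. The lost regions were 1 of 47, beside 12.5% of all, and constant regions 13 of 47, beside 13.8%. None was transient, a name for regions absent at 0, 4, 96 and 120 h with at least 2 neighbouring lists in between, beside 9.65% of all. The other 27 regions met none of these definitions, like 61.7% of all. Regions of a gene are not independent, and the intervals cover counting error only. Being listed on and off was common everywhere: of regions spanning 3 or more lists, 11 of 41 at these genes and 41.0% of all were missing from a list in between.

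Gene by gene, 7 of the 9 had more peaks at 120 h than at 0 h, none had fewer, and Pirb and Cd300a had as many. Among the 18094 genes with a peak in either list, more were found for 7.82%, fewer for 71.4% and the same number for 20.8%. The median difference was 1 peak for the 9 genes and -1 for all genes. From 4 to 120 h, in order, the number of receptor genes above their 0 h count was 4, 5, 7, 6, 6, 7, 7, 7 and 7, and the share of all genes above theirs was 24.4, 26.0, 30.5, 39.3, 35.8, 36.7, 23.1, 11.1 and 7.82%. Receptor genes below their 0 h count numbered 1, 2, 1, 0, 0, 2, 0, 1 and 0, and the share of all genes was 25.6, 25.7, 23.0, 19.5, 24.8, 25.8, 43.9, 64.7 and 71.4%. From 12 h on, 6 or 7 of the 9 were above their 0 h count in every list. These comparisons are not independent, because all share the 0 h list, in which the 9 genes had their lowest sum. That sum was 22 peaks, against 32 at 12 h and 33 at 120 h. Among all genes, the share above exceeded the share below from 8 to 48 h, and the share below was the larger at 4 h and from 72 h on. The difference was 4 peaks for Pilra, 2 for Cd300ld and 1 each for Pilrb1, Pilrb2, Sirpa, Cd300lf and Cd33. A difference of 1 peak is the smallest possible and cannot be set against a spread between replicates here.

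**Figure D5:**
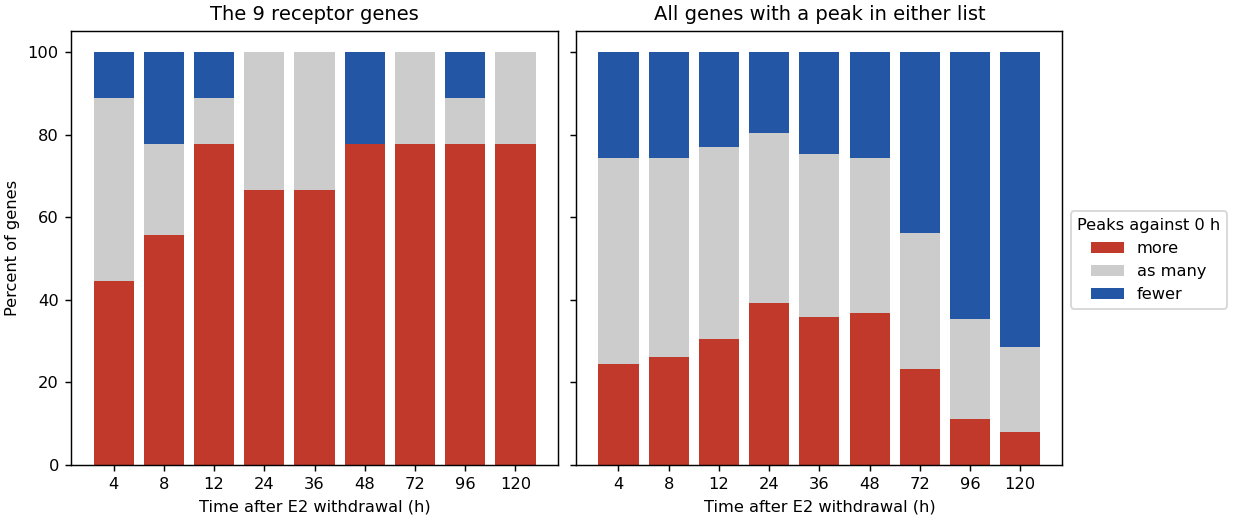
Percent of genes with more, as many or fewer peaks than at 0 h, for the 9 receptor genes (left) and for all genes with a peak in either list (right), by time after E2 withdrawal. At 120 h 7 of the 9 receptor genes had more, against 7.82% of all genes.

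Summed over the 9 genes, the lists held 22, 27, 29, 32, 32, 37, 40, 38, 34 and 33 peaks in order of time. Meanwhile the lists shortened from 55261 peaks at 0 h to 23620 at 120 h. The receptor genes thus made up 0.0398% of the list at 0 h (95% Wilson interval 0.0263 to 0.0603%) and 0.140% at 120 h (0.0995 to 0.196%). The sum for the 6 inhibitory genes was 20 in the first list, 33 at its highest (72 h) and 27 in the last. For the 3 activating genes it was 2, then 9 at its highest (48 h) and 6 in the last, and none of their promoters was listed at 0 h. When only the 23620 widest peaks of each list were counted, the 9 genes went from 10 peaks to 33 between 0 and 120 h, and all 9 had more, beside 30.9% of all genes. With the widest 50% of each list they went from 10 to 15, and 7 had more and 2 fewer, beside 7.9% and 61.7% of all genes. In these bulk lists, more cells with an open site and more opening per cell cannot be told apart.

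Genes that work with these receptors were taken from lists of adaptors, phosphatases, kinases, ligands and related receptors. Of 39 such genes 38 had a peak. Between 0 and 120 h the number grew for 9 of them, shrank for 22 and was equal for 7. Their median difference was -1, that of all genes. Their peaks summed to 122 at 0 h and 93 at 120 h, with 15 gained and 13 lost regions. Of all regions, 2.38% were gained and 12.5% lost. No share is given for these genes, because only their gained and lost regions were counted. A promoter peak was listed for 29 of them at 0 h and 22 at 120 h.

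For the signalling partners, values are given as the number of peaks in the 0 h list followed by that in the 120 h list. Of the adaptors, Tyrobp, which encodes DAP12, went from 3 to 2, Hcst (DAP10) from 2 to 1 and Fcer1g (the Fc receptor gamma chain) from 2 to 1, each with a promoter peak at both times. Of the phosphatases, Ptpn6 (SHP-1) had 3 peaks in every list, Ptpn11 (SHP-2) went from 4 to 3 and the lipid phosphatase Inpp5d (SHIP-1) from 11 to 7. Of the kinases, the Src family members Lyn and Fgr went from 3 to 3 and from 2 to 3, and Syk, which activating receptors recruit, from 7 to 6. Of the adaptors, phosphatases and kinases named here, Fgr alone had more peaks late, but it had a promoter peak at 0 h and none at 120 h, and 1 lost region. Of the ligands, Cd47, which Sirpa binds, went from 11 to 6, the PILRA ligand gene Npdc1 from 1 to 0 and Cd200, which encodes the ligand of another inhibitory receptor, from 0 to 2.

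Related receptors went both ways. Among 11 activating relatives the number grew for 4, shrank for 5 and was equal for 2, and 4 regions were gained and 2 lost. Siglech went from 4 peaks to 0, Lilra6 from 5 to 3 and Sirpb1a from 3 to 1. Among 13 other inhibitory receptors the number of peaks grew for 3, shrank for 7 and was equal for 3, and 6 regions were gained and 3 lost. Gained regions were thus not particular to the 9 genes. Lilrb4a, which encodes an ITIM receptor of myeloid cells, went from 0 peaks to 3 and held 2 gained regions. Cd22, a B cell Siglec gene, went from 3 to 0, and Cd200r1 from 3 to 1. Whether the 9 receptor genes differ from their relatives and partners was not tested.

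By number of peaks over the 10 lists, the gene closest to Pilra among the 19729 others was Pid1, with a sum of absolute differences of 8 peaks. Its numbers were 1, 2, 1, 3, 5, 6, 6, 7, 7 and 6 in order of time. Next, at 9 each, came Ccdc57, Cd200r3, Gm4262 and Il1a. All 5 reached their highest number in a list between 36 and 96 h, which follows largely from choosing them by likeness to Pilra. This likeness is in peak number per list only.

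Peaks of marker genes of blood cell types were also counted. Neutrophil markers (Ly6g, Cd177, Camp, Ltf, Ngp, Mmp8, Mmp9 and Cxcr2) went from 10 peaks in the 0 h list to 18 in the 120 h list, and 6 of the 8 had more. The primary granule genes Mpo, Elane, Prtn3 and Ctsg went from 13 to 2. Macrophage and monocyte markers (5 genes) went from 17 to 9, mast cell and basophil markers (4) from 5 to 1, eosinophil markers (3) from 7 to 4, B cell markers (3) from 3 to 0, T cell markers (3) from 7 to 0 and erythroid markers (3) from 3 to 2. The 7 T cell marker peaks at 0 h were all of Tcf7, and Cd3e and Cd3g had none at 0 or 120 h. Fcer1a, Ms4a2, Cd3g and Hbb-bt had 0 in every list. The neutrophil markers held 4 gained and 0 lost regions, and each other marker group held lost regions only. The part of other cell types in the receptor genes' peaks was not tested.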

How the data were processed

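The authors deposited 1 annotated peak list per time point. Per the file headers, peaks were annotated with HOMER's annotatePeaks.pl against mm10. The submitters' processing notes name STAR 2.5, MACS2 2.0 and BWA, without their roles, and the build mm9; the distances of the lists match TSS positions of GRCm38.p6, so mm10 is used. Peak calling settings, pooling of replicates and any Tn5 shift are not given in the sources used here. The deposited score was 0 for every peak, so width was the only measure of a peak.

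Peaks of all lists overlapping by at least 1 bp were chained into regions, whose gene was that of the widest peak. All 9 symbols matched the RefSeq gene table. Every member is named; of partner lists, all genes of lists of up to 4 (except 1 kinase gene, which is not reported here) and otherwise the 3 with the largest difference; and the 5 genes closest to Pilra. The region and counting steps were tested on simulated data. The members and lists were chosen with earlier results of these data known. Shares carry 95% Wilson intervals. Work was done in Python 3.11.15 with pandas 2.3.3, scipy 1.17.1, numpy 2.4.6 and, for plots, matplotlib 3.10.9.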

Additional observations from a re-analysis of the deposited data

How the results depend on the processing

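The counts of members with more peaks at 120 h, and of members with a promoter peak at 0 h and at 120 h, stayed within 1.5 times their reported value in every alternative run. The summed difference between 120 h and 0 h, 11 peaks as reported, was 23 with every list reduced to as many of its widest peaks as the shortest list holds and 5 with the widest 50% of every list. The first of these reductions leaves the 120 h list whole, so it can only raise this difference. Gained regions, 6 as reported, were 3 with the widest 50%. They were 9 with 0 and 4 h set against 96 and 120 h, and 9 with the 120 h list ignored. Both stand exactly at 1.5 times and were counted as within it. Lost regions, 1 as reported, were 0 with either reduction and 4 with 0 and 4 h set against 96 and 120 h. Of 35 comparisons of a reported value with an alternative, 29 stayed within 1.5 times, and the others are among those given here. Only the summed difference could turn its direction, and it did not, while the other values are counts. With 9 members, the reported 7 with more peaks and 9 with a promoter peak at 120 h could not rise beyond 1.5 times. Leaving out Pilrb1 and Pilrb2, an alternative chosen after seeing the data, gave a summed difference of 9 peaks. No paired analysis was possible because each time point has 1 list for both samples, and leaving out a replicate was not possible for the same reason. Reducing lists by width favours wide peaks and is no correction for read depth, which is unknown.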

Other observations

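The CD300 locus on chromosome 11 holds further receptor genes between Cd300a and Cd300lf, none of which is among the 9. From the 0 h to the 120 h list, Cd300lb, an activating member, went from 4 peaks to 5, and Cd300e from 2 to 3. Cd300c2 had 2 peaks in every list, and Cd300c had 3 up to 72 h and 2 at 96 and 120 h, with a promoter peak at 0 h and none at 120 h. Cd300ld3 had 1 peak at both times, at its promoter only at 120 h. No peak was assigned to Cd300ld2, Cd300ld4 or Cd300ld5. Rab37, whose gene body spans Cd300lf, had 3, 4, 4, 4, 4, 4, 4, 4, 2 and 1 peaks in order of time.

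Genes beside the receptor loci went both ways; those named here were chosen after their values were seen. Next to Pirb, Mboat7 and Tsen34 each had 0 peaks at 0 and 8 h and 1 in each of the other 8 lists, at the promoter at 120 h. On the Pilra side of the Pilr locus, Tsc22d4 went from 3 peaks to 4 and from 0 promoter peaks to 2. Next to Pilra, Zcwpw1 had 2 peaks in both the first and the last list, and on the other side of the locus Azgp1 had 2 and 0. Beside Sirpa, Il1a had 2, 3, 3, 3, 5, 6, 6, 6, 5 and 4 peaks in order of time. Beside Cd33, the zinc finger gene Zfp658 went from 3 peaks to 1, Zfp719 from 2 to 1 and Zfp819 from 0 to 2, with a promoter peak of Zfp819 at 120 h and none at 0 h.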
